A study of Homo sapiens with 13 samples.

Results

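Chloroquine given alone was set against its vehicle in cells labelled TE11, a line from a human squamous cell carcinoma of the esophagus. The comparison is set by the labels of the libraries, and it was chosen with earlier results of these data known. It takes in 7 of the 13 libraries of the series and every gene of the count table. The chloroquine group holds 3 libraries of cells that received 10 µM chloroquine for 48 h. The vehicle group holds 4 libraries of cells that received 0.1% DMSO for the same time. Both groups grew in DMEM with serum and antibiotics, and whether the chloroquine cells also received DMSO is not given in the labels. The other 6 libraries come from cells given both 10 µM chloroquine and 25 µM 5-fluorouracil (5-FU), the combination, or 25 µM 5-FU alone, with 3 libraries each. They share the estimate of the spread and serve 1 comparison at the end. Whether the replicates came from separate cultures is not stated, so p-values measure only the spread between these libraries, which may be technical.

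Chloroquine is a weak base that becomes trapped in acidic compartments, above all in lysosomes, where it raises the pH and blocks the digestion of autophagosomes. Lysosomes recycle amino acids, cholesterol and iron, and their surface carries the mTORC1 kinase with its Rag GTPase and folliculin partners, which keep the transcription factors TFEB and TFE3 in the cytoplasm. Shortage of sterols in the endoplasmic reticulum is known to activate SREBP2, and shortage of amino acids or stress of the endoplasmic reticulum to activate ATF4.

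The libraries held between 17834539 and 23679833 counts, and 19514 of 60591 genes had enough counts to be tested. Of 31 markers of squamous and esophageal epithelium, 26 never exceeded 10 counts in the 7 libraries and 7 had none in any. The desmosomal gene DSC3 and the p63 target PERP made up most of the list, whose summed level was 330.5 to 340.0 CPM (counts scaled to library size) with chloroquine and 235.8 to 248.8 with vehicle. DSC3 rose by a log2 fold change of 0.43 ± 0.056 and PERP by 0.32 ± 0.061 (edgeR adjusted p = 4.59e-05 and 0.001). The p63 gene TP63 itself had 0, 2 and 0 counts with chloroquine and 0, 0, 0 and 2 with vehicle. The label of a squamous line is therefore borne out by few of its markers. Summed over 12 neuron and glia markers the level was 299.8 to 321.8 CPM with chloroquine and 275.1 to 289.1 with vehicle. Most of this came from NEFL, NEFM and SYP, and 3 of the 12 never exceeded 10 counts in the 7 libraries. Of the 10 tested members 4 rose and 2 fell at an edgeR adjusted p under 0.05. NEFM went the other way from the sum. It had 1297, 1190 and 1076 counts in chloroquine libraries 1 to 3, against 1519, 1574, 1699 and 1579 in vehicle libraries 1 to 4. Libraries of chloroquine 1 and 2 and of vehicle 4 also carried transcripts of other tissues. The collagen gene COL1A2 had 607, 450 and 4 counts in chloroquine libraries 1 to 3, against 7, 5, 1 and 741 in vehicle libraries 1 to 4. The haemoglobin gene HBB had 136, 88 and 0 counts with chloroquine, against 2, 0, 0 and 203 with vehicle. Summed over 12 fibroblast and matrix markers the level was 46.31 to 138.9 CPM with chloroquine and 40.96 to 161.0 with vehicle. Each result below was therefore also computed within the libraries under 50 COL1A2 counts (chloroquine 3, vehicle 1 to 3) and within those with at least 50 (chloroquine 1 and 2, vehicle 4).

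Chloroquine moved a large share of the transcriptome by small amounts, with more large rises than large falls. Of 19514 genes, 7682 (39.4%) passed the test, at an edgeR adjusted p under 0.05. Of these 3952 (20.3%) rose and 3730 (19.1%) fell. With libraries scaled by their totals alone the split was 5435 rises and 2410 falls. A log2 fold change of at least 1 was reached by 858 of the rises (4.40% of genes tested) but by 104 of the falls (0.533%). The median log2 fold change over all genes was 0.02. Levels below are CPM with library sizes scaled by the trimmed mean of M values, values after ± are the SD between libraries for a level and the SE for a log2 fold change, "rose by" gives a log2 fold change, and all adjusted p-values come from edgeR's quasi-likelihood test with Benjamini-Hochberg adjustment over all genes tested. In bulk RNA, fewer cells of a kind and less RNA per cell cannot be told apart. Counts of list members are to be read against the 20.3% of all genes that rose and the 19.1% that fell. These shares differ with the mean level over all 13 libraries. They were 12.2% and 41.7% at 100 CPM or more, and 13.9% and 1.9% under 1 CPM. The lists were chosen with earlier results of these data known, so such counts describe the lists and do not test them. Groups without overlap are common. Of all genes tested, 24.6% were higher in every chloroquine library than in every vehicle library, and 23.2% lower.

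**Figure D1:**
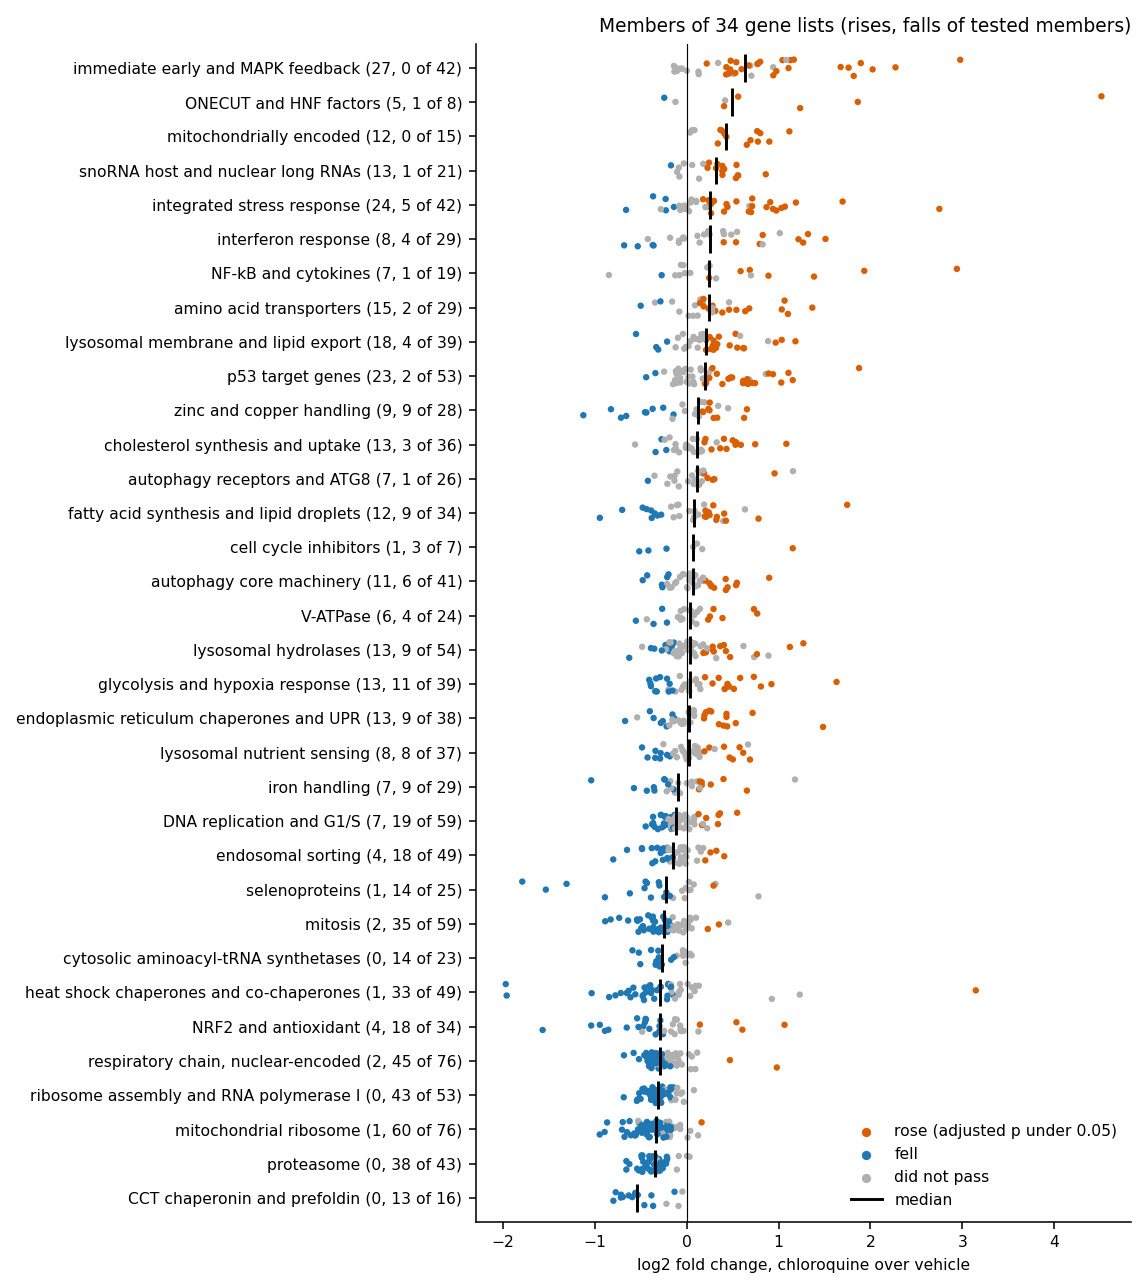
Log2 fold changes of the tested members of 34 gene lists, chloroquine over vehicle, 1 point a gene, ordered by the list's median (black bar); orange points rose, blue points fell and grey points did not pass the test. The immediate early list lies furthest to the right with 27 rises and 0 falls among 42 members, and the CCT chaperonin list furthest to the left with 0 rises and 13 falls among 16.

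Of the genes of the lysosomal membrane and of lipid export from the lysosome 18 of 39 rose, while the soluble hydrolases were split and the core regulators TFEB and TFE3 did not pass the test. A further 4 of the 39 fell and 17 missed the threshold (median 0.21 on the log2 scale). Without vehicle 3 or chloroquine 2 there were 2 falls. Within the libraries under 50 COL1A2 counts 11 rose and 1 fell, and within the others 8 rose and 1 fell. MCOLN3, a cation channel of endosomes and lysosomes, had 59.95, 59.6 and 59.8 CPM in chloroquine libraries 1 to 3, against 25.9, 25.2, 26.5 and 27.6 CPM in vehicle libraries 1 to 4. The chloroquine libraries lay close together and far above every vehicle library, with a log2 fold change of 1.18 ± 0.069 (adjusted p = 4.55e-08). CLCN7, the chloride and proton exchanger of lysosomes, had 129.6, 129 and 119 CPM with chloroquine and 77.8, 83.1, 83.6 and 81.3 CPM with vehicle (log2 0.63 ± 0.10, adjusted p = 0.000278). Its groups did not overlap either. NPC1, which exports cholesterol from lysosomes, had a log2 fold change of 0.26 ± 0.070 (adjusted p = 0.00842), but it did not pass within either kind of library (0.19 and 0.27). LAMP1, the abundant lysosomal membrane glycoprotein, stood at 82.2 ± 6.16 CPM with chloroquine and 87.9 ± 1.55 CPM with vehicle and did not pass (log2 -0.10 ± 0.060, adjusted p = 0.231).

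Among 54 tested lysosomal hydrolases and cofactors 13 rose and 9 fell (4 fell with libraries scaled by totals alone, 3 within the libraries with at least 50 COL1A2 counts, and 5 without any 1 of vehicle 1, vehicle 2 or the 3 chloroquine libraries), shares of the same order as in all genes. TPP1, the tripeptidyl peptidase of lysosomes, had 160.1, 169 and 140.1 CPM with chloroquine and 88.8, 83.8, 94.2 and 101 CPM with vehicle, a log2 fold change of 0.77 ± 0.075 (adjusted p = 3.73e-06). The lowest chloroquine library was above the highest vehicle library. The protease gene CTSK rose by 1.12 ± 0.22, with 5.37, 4.71 and 3.96 CPM with chloroquine and 1.7, 1.77, 1.7 and 3.4 CPM with vehicle. Here vehicle 4, a library with transcripts of other tissues, lay well above the other 3 vehicle libraries. IDUA, which degrades glycosaminoglycans, rose by 1.27 ± 0.13, the hyaluronidase gene HYAL2 fell (log2 -0.62 ± 0.11) and so did the phosphatase gene ACP2 (log2 -0.39 ± 0.083). CTSD, the aspartyl protease cathepsin D, did not pass (log2 -0.08 ± 0.12, adjusted p = 0.655). Of 24 V-ATPase subunits and regulators 6 rose and 4 fell. The regulator DMXL2 rose by 0.73 ± 0.077, and 14 members of the list did not pass.

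Genes of nutrient sensing on the lysosomal surface rose and fell in shares near those of all genes. Rises and falls made up 21.6% each, against 20.3% and 19.1% of all genes. Folliculin and its partners FNIP1 and FNIP2 were among the rises. In the list of 37 tested members 8 rose and 8 fell, with a median of 0.03 (5 fell with totals alone or within the libraries under 50 COL1A2 counts, and 4 within the others). FNIP1 and FNIP2, which bind folliculin, had log2 fold changes of 0.62 ± 0.047 and 0.69 ± 0.061 (adjusted p = 5.13e-07 and 1.5e-06). For FNIP2 the levels were 70.6, 68.3 and 65.4 CPM with chloroquine and 38.03, 43.1, 46.2 and 41.6 CPM with vehicle. FLCN itself rose by 0.47 ± 0.078, the Rag GTPase gene RRAGD, a known TFEB and TFE3 target, by 0.58 ± 0.064, and TSC1, an inhibitor of mTORC1 signalling, by 0.50 ± 0.055. The scaffold gene LAMTOR4 fell (log2 -0.43 ± 0.10) and so did TBC1D7 (log2 -0.49 ± 0.11), a partner of the TSC complex. TFEB had 3.81, 2.62 and 4.24 CPM with chloroquine and 2.64, 2.62, 3.16 and 3.04 CPM with vehicle. Its groups overlapped and the difference did not pass (log2 0.30 ± 0.18, adjusted p = 0.202), although it passed, at 0.485, without chloroquine 2. TFE3 was at 53.8 ± 1.42 CPM with chloroquine and 52.8 ± 1.58 CPM with vehicle (log2 0.03 ± 0.068, adjusted p = 0.79). GPNMB of the membrane list, a glycoprotein known to rise with lysosomal stress, had 2.07, 1.85 and 1.47 CPM with chloroquine and 0.769, 0.628, 1.12 and 1.13 CPM with vehicle (log2 0.97 ± 0.19, adjusted p = 0.00108). The groups did not overlap, but neither kind of library passed alone at these low levels (0.78 and 0.79).

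A minority of autophagy genes passed the test, as did a minority of all genes tested (39.4%). Of 41 tested core genes 11 rose and 6 fell, and of 26 receptors and ATG8 genes 7 rose and 1 fell, at medians of 0.065 and 0.11. With totals alone the rises numbered 20 and 13. Falls among the receptors depended on single libraries, with 8 without 5-FU 1, 7 without 5-FU 2 or chloroquine 3, and 2 without vehicle 4, chloroquine 1 or 2, 5-FU 3 or combination 1. Without chloroquine 2 the receptors had 4 rises. OPTN, an autophagy receptor for ubiquitinated cargo, had 46.5, 46.1 and 45.3 CPM with chloroquine and 24.1, 23.6, 23.1 and 24.03 CPM with vehicle, a log2 fold change of 0.96 ± 0.049 (adjusted p = 1.27e-08). Both groups were tight, and every chloroquine library stood well above every vehicle library. WIPI1, a phosphoinositide-binding protein of forming autophagosomes, rose by 0.90 ± 0.11, while ATG2A and ATG3 fell (log2 -0.48 ± 0.10 and -0.43 ± 0.081). SQSTM1, the receptor p62 whose protein is known to build up when autophagy is blocked, had 30.9, 31.7 and 33.7 CPM with chloroquine and 33.1, 36.3, 33.2 and 33.5 CPM with vehicle. The groups overlapped and the transcript did not pass (log2 -0.09 ± 0.098, adjusted p = 0.533). MAP1LC3B, which encodes LC3B, was at 157 ± 0.492 CPM with chloroquine and 138 ± 6.02 CPM with vehicle. Its rise of 0.19 ± 0.065 (adjusted p = 0.0319) no longer passed with relative log expression size factors (0.17), with the replicate number as a block (0.16) or in 6 of the 7 fits that left out a chloroquine or vehicle library. In endosomal sorting 18 of 49 tested members fell and 4 rose (median -0.15), and 11 fell with totals alone and 9 within the libraries with at least 50 COL1A2 counts. SNX5, a sorting nexin of the retromer pathway, had a log2 fold change of -0.65 ± 0.054 and the ESCRT gene CHMP6 one of -0.80 ± 0.077, while CHMP1B rose by 0.41 ± 0.054.

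Sterol synthesis and uptake genes rose in part. Of 36 tested members 13 rose and 3 fell (median 0.12), and within the libraries under 50 COL1A2 counts 13 rose and within the others 12. Falls numbered 7 without 5-FU 1 and 5 without 5-FU 2. INSIG1, a sterol sensor that holds SREBP in the endoplasmic reticulum and is itself an SREBP target, had 189, 191 and 195 CPM with chloroquine and 96.1, 86.2, 91.8 and 87.7 CPM with vehicle. All chloroquine libraries stood far above the vehicle libraries, at a log2 fold change of 1.08 ± 0.053 (adjusted p = 1.14e-08). The sterol transfer protein gene STARD4 rose by 0.75 ± 0.078, HMGCS1, which makes HMG-CoA, by 0.53 ± 0.058 and the transcription factor gene SREBF2 by 0.37 ± 0.072. ACAT2 and TM7SF2, a thiolase and a sterol reductase, had log2 fold changes of -0.34 ± 0.043 and -0.27 ± 0.090. TM7SF2 lost its call with totals alone (-0.18), within each kind of library and without any 1 of vehicle 1, 2 or 3 or chloroquine 1 or 2. Of 34 tested genes of fatty acid synthesis and lipid droplets 12 rose and 9 fell, but 4 and 4 within the libraries with at least 50 COL1A2 counts. Rises numbered 6 without chloroquine 3 and 7 without chloroquine 1 or vehicle 2, and falls 5 without chloroquine 2. The lipid droplet coat gene PLIN4 had 6.84, 5.61 and 6.5 CPM with chloroquine and 2.2, 1.66, 1.8 and 1.86 CPM with vehicle, a log2 fold change of 1.75 ± 0.14 (adjusted p = 5.89e-07). The NADPH-producing malic enzyme gene ME1 fell (log2 -0.94 ± 0.077).

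Of 42 tested genes of the integrated stress response, which holds targets of ATF4 and CHOP, 24 rose, while 14 of 23 aminoacyl-tRNA synthetase genes, many of them known ATF4 targets as well, fell. In the stress response list 5 fell and 13 missed the threshold (median 0.26 on the log2 scale). Within the libraries under 50 COL1A2 counts 21 rose and within the others 20. Falls numbered 3 without any 1 of vehicle 1, 2 or 3 or chloroquine 1 or 2. CHAC1, which degrades glutathione and is a known target of ATF4, had 10.3, 11.4 and 8.7 CPM in chloroquine libraries 1 to 3 and 2.8, 2.97, 3.55 and 3.2 CPM in vehicle libraries 1 to 4 (log2 1.70 ± 0.13, adjusted p = 5.36e-07). The lowest chloroquine library was far above the highest vehicle library. NUPR1, a small stress-induced nuclear protein, rose by 2.75 ± 0.34 at low levels, 2.07, 1.99 and 1.92 CPM with chloroquine and 0.495, 0.171, 0.195 and 0.309 CPM with vehicle. PPP1R15A, the phosphatase subunit that reverses the eIF2 block, rose by 1.07 ± 0.085, DDIT3, which encodes CHOP, by 1.03 ± 0.099, ATF3 by 0.98 ± 0.072 and the asparagine synthetase gene ASNS by 0.71 ± 0.17. ATF4 itself had 845, 869.9 and 907 CPM with chloroquine and 792, 789, 756 and 752 CPM with vehicle. That is a small rise without overlap (log2 0.18 ± 0.042, adjusted p = 0.00376) which did not pass within the libraries with at least 50 COL1A2 counts (0.19). TXNIP, which binds thioredoxin and limits glucose uptake, fell (log2 -0.66 ± 0.054), as did EIF2S1, the alpha subunit of eIF2 (log2 -0.36 ± 0.066).

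The promoter of CHAC1 is shown because it holds the short letters of an amino acid response element, in capitals, on its reverse strand. It is the 300 bases around the gene's start at chr15:40953221-40953520 (plus strand, RefSeq, GRCh38.p14).
CHAC1: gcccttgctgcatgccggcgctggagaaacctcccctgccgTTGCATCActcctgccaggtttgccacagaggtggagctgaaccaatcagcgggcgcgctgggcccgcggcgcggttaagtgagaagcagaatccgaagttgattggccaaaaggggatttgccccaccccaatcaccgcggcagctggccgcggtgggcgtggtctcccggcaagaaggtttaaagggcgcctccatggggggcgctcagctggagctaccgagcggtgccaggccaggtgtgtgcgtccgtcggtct
The letters searched were TGATGNAA on both strands. They occurred in 6 of 34 promoters of the stress response list (17.6%) and in 4 of 22 of the amino acid transporter list (18.2%), against 1.70% of 11738 promoters of tested genes. Of the 20 promoters of stress response members that rose 5 held it, and of the 4 of members that fell 1 did (25.0% each). A match describes letters, not a bound site.

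Amino acid transporters rose in 15 of 29 tested cases and fell in 2 (median 0.24), with 8 rises within the libraries under 50 COL1A2 counts and 11 within the others, and 4 falls without 5-FU 1 or 5-FU 2. SLC38A1, a glutamine transporter, had 585, 572 and 577 CPM with chloroquine and 341, 375, 363 and 363 CPM with vehicle (log2 0.68 ± 0.066, adjusted p = 3.15e-06). The groups were far apart relative to their spread. SLC6A9, a glycine transporter, rose by 1.07 ± 0.084 with 28.00, 28.6 and 27.1 CPM with chloroquine and 12.97, 13.2, 14.9 and 12.2 CPM with vehicle. The cystine importer gene SLC7A11 rose by 0.54 ± 0.067 and the glutamate transporter gene SLC1A2 by 1.37 ± 0.28 at low levels, and SLC1A2 did not pass within the libraries under 50 COL1A2 counts (1.09). Among 23 tested cytosolic aminoacyl-tRNA synthetases and their partners 0 rose and 14 fell, with a median of -0.27. That median was -0.124 within the libraries under 50 COL1A2 counts and -0.245 within the others. FARSB, a subunit of the phenylalanyl enzyme, had 115, 119 and 113 CPM with chloroquine and 159.8, 169, 167 and 167 CPM with vehicle, a log2 fold change of -0.52 ± 0.051 (adjusted p = 3.39e-06). AIMP2, a scaffold of the multi-synthetase complex, was at -0.59 ± 0.063. Endoplasmic reticulum chaperones were divided, with 13 rises and 9 falls among 38 tested genes (3 falls with totals alone, 5 without chloroquine 1 or 2). The transcription factor gene CREB3L1 rose by 1.48 ± 0.17 and the co-chaperone gene DNAJB9 by 0.72 ± 0.073, while SDF2L1 fell (log2 -0.67 ± 0.14).

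**Figure D2:**
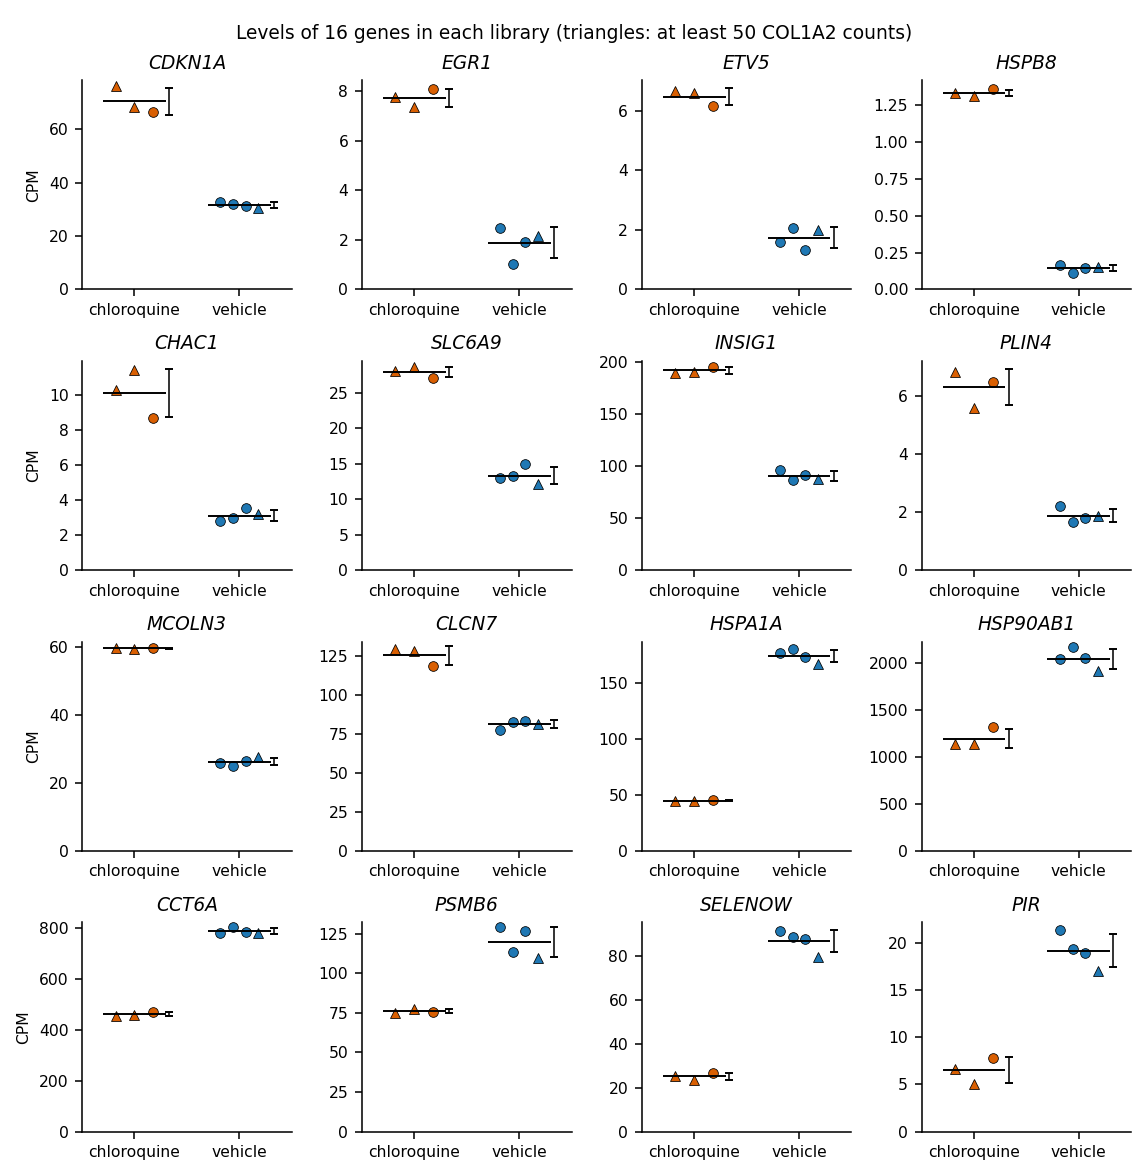
Levels of 16 genes in CPM (linear axis from 0) in each chloroquine library (orange, n = 3) and vehicle library (blue, n = 4), with the group mean as a line and the SD as a bar; triangles are libraries with at least 50 COL1A2 counts. In all 16 genes the groups did not overlap, with 10 genes higher and 6 lower with chloroquine. Over all genes tested 24.6% were higher and 23.2% lower without overlap. Some of the 16, among them ETV5, CLCN7 and HSP90AB1, were named after their values were seen.

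Immediate early genes and feedback regulators of MAPK signalling, which growth factors and stress induce through ERK, made the list with the highest median. Of 42 tested members 27 rose, 0 fell and 15 missed the threshold, at a median log2 fold change of 0.64. Within the libraries under 50 COL1A2 counts 26 rose and within the others 21. With a filter at 10 CPM in 3 libraries 16 members rose, with fewer members tested. EGR1, a zinc finger factor induced rapidly by ERK activation, had 7.76, 7.38 and 8.08 CPM in chloroquine libraries 1 to 3, against 2.47, 1.03, 1.9 and 2.17 CPM in vehicle libraries 1 to 4. The lowest chloroquine library was far above the highest vehicle library (log2 2.02 ± 0.19, adjusted p = 2.29e-06). ETV5, an ETS factor downstream of ERK, had 6.66, 6.61 and 6.16 CPM with chloroquine and 1.59, 2.05, 1.31 and 2.01 CPM with vehicle (log2 1.89 ± 0.18, adjusted p = 2.91e-06). FOS, a subunit of AP-1, rose by 1.76 ± 0.27, the ERK phosphatase gene DUSP4 by 1.11 ± 0.10 and the muscle ankyrin repeat gene ANKRD1, a known target of YAP, by 2.27 ± 0.20. SPRY4, an inhibitor of receptor tyrosine kinase signalling, was near the floor at 0.413, 0.543 and 0.735 CPM with chloroquine and 0.055, 0, 0.049 and 0.155 CPM with vehicle. Its log2 fold change of 2.98 ± 0.65 (adjusted p = 0.00245) was 4.16 within the libraries under 50 COL1A2 counts, and 1.59, which did not pass, within the others.

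The promoter of EGR1 is printed because the serum response element of this gene is a textbook case and its letters fall inside the window. Its 300 bases lie at chr5:138465229-138465528 (plus strand, RefSeq, GRCh38.p14), and the capitals mark 2 CArG boxes.
EGR1: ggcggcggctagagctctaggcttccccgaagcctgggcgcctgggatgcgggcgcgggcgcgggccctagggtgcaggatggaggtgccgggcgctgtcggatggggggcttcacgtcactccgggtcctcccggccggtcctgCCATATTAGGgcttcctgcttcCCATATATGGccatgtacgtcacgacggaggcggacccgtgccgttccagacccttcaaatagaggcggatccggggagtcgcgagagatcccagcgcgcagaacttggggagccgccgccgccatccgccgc
The CArG box was searched on both strands. It occurred in 2 of 31 promoters of the immediate early list (6.50%), against 1.00% of promoters of tested genes, and in 1 of the 20 whose gene rose. Few of these promoters thus hold the motif in this window.

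Chaperones of the cytosol, the chaperonin CCT and the proteasome share the work of folding and clearing proteins. Of 49 tested heat shock chaperones and co-chaperones 33 fell and 1 rose, while 15 missed the threshold (median -0.29). The inducible HSP70 genes HSPA1A and HSPA1B fell most. They are so alike that the split of reads between them is uncertain. HSPA1A had 44.7, 44.3 and 45.5 CPM in chloroquine libraries 1 to 3 and 176, 179.8, 173 and 167 CPM in vehicle libraries 1 to 4. HSPA1B had 46.8, 47.01 and 46.00 CPM with chloroquine and 195, 179, 185 and 169.8 CPM with vehicle. For both, every chloroquine library lay far below every vehicle library, at log2 fold changes of -1.96 ± 0.069 and -1.97 ± 0.057 (adjusted p = 4.16e-10 and 4.74e-11). HSP90AB1, the constitutive HSP90, had 1139, 1134 and 1316 CPM with chloroquine and 2039, 2174, 2057 and 1913 CPM with vehicle (log2 -0.77 ± 0.057). Chloroquine 3 was the highest of its group and still below every vehicle library. HSP90AA1 (log2 -0.65 ± 0.062), the HSP110 gene HSPH1 (-0.65 ± 0.044), the mitochondrial co-chaperonin gene HSPE1 (-0.84 ± 0.088) and the HSP90 partner gene CHORDC1 (-1.03 ± 0.11) also fell. The rise was in HSPB8, a small heat shock protein that works with BAG3 in chaperone-assisted autophagy. It had 1.33, 1.31 and 1.36 CPM with chloroquine and 0.165, 0.114, 0.146 and 0.155 CPM with vehicle, a log2 fold change of 3.15 ± 0.26 (adjusted p = 8.73e-07) from a low base.

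The promoters of the HSP70 pair are set side by side to show how alike the copies are and where the heat shock element, the binding sequence of HSF1, stands. They lie at chr6:31815293-31815592 and chr6:31827488-31827787 (both plus strand, RefSeq, GRCh38.p14), and the capitals mark the element.
HSPA1A: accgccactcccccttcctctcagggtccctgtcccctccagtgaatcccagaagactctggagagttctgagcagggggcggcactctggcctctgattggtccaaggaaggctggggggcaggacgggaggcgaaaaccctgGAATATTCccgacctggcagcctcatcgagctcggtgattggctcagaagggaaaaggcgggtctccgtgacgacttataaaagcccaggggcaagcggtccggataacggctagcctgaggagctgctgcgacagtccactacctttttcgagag
HSPA1B: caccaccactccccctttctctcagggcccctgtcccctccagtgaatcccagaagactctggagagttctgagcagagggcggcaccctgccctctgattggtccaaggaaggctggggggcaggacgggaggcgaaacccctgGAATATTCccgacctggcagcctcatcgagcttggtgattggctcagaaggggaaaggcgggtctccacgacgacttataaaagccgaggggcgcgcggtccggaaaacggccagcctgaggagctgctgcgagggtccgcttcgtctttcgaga
Over 299 aligned bases 277 were identical (92.6%). The letters searched were GAANNTTC, which reads the same on both strands. They occurred in 13 of 41 promoters of the heat shock list (31.7%), against 4.70% of 11738 promoters of tested genes. Among the 29 whose gene fell 9 held the element, and the promoter of the 1 riser held it too.

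CCT is the ring that folds actin and tubulin. Its subunits were read together with prefoldin and their partners, and 13 of these 16 tested genes fell and 0 rose (median -0.55). CCT6A had 455, 456 and 469.8 CPM with chloroquine and 777, 803, 782 and 779.9 CPM with vehicle, a log2 fold change of -0.77 ± 0.046 (adjusted p = 5.45e-08). The chloroquine libraries lay close together and clear of the vehicle libraries. PDCL3, a phosducin-like co-factor of CCT, also fell (log2 -0.80 ± 0.091). Of 43 tested proteasome genes 38 fell and 0 rose (median -0.34), with 31 falls within the libraries under 50 COL1A2 counts and 28 within the others. PSMB6, a catalytic core subunit, had 74.96, 77.5 and 75.6 CPM with chloroquine and 129, 113, 127 and 109.7 CPM with vehicle (log2 -0.66 ± 0.082, adjusted p = 2.73e-05). PSMA3, of the outer ring of the core, was at -0.66 ± 0.084. The groups did not overlap in either gene.

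Most tested genes of ribosome assembly fell by small amounts. Among 53 tested genes of ribosome assembly and RNA polymerase I 43 fell and 0 rose (median -0.31). BRIX1, an assembly factor of the large subunit, had 89.9, 89.6 and 94.4 CPM with chloroquine and 146, 145, 144 and 151 CPM with vehicle, a log2 fold change of -0.68 ± 0.079 (adjusted p = 1.41e-05). NPM1, the abundant nucleolar chaperone, had 856, 866 and 902 CPM with chloroquine and 1309, 1229, 1238 and 1228 CPM with vehicle (log2 -0.52 ± 0.068). In neither gene did the groups overlap. POLR1E, a subunit of RNA polymerase I, fell as well (log2 -0.54 ± 0.068). Transcripts of the 5.8S ribosomal RNA copies RNA5-8SN1 and RNA5-8SN2 also fell (log2 -1.82 ± 0.24 and -1.51 ± 0.32), but these are identical multicopy genes with 1.24, 1.58 and 1.07 CPM with chloroquine and 4.4, 6.39, 3.45 and 4.33 CPM with vehicle for the first, so their counts are uncertain.

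Most tested nuclear genes of the respiratory chain fell. Of 76 tested genes of the mitochondrial ribosome 60 fell and 1 rose (median -0.34), and of 76 tested nuclear genes of the respiratory chain 45 fell and 2 rose (median -0.29). Within the libraries with at least 50 COL1A2 counts these falls numbered 38 and 20. MRPL12, a stalk protein of the mitochondrial ribosome, had 27.4, 29.1 and 33.7 CPM with chloroquine and 58.8, 58.9, 61.9 and 51.6 CPM with vehicle (log2 -0.95 ± 0.16, adjusted p = 0.000323). The groups did not overlap. CYC1, cytochrome c1 of complex III, and ATP5F1D, a subunit of ATP synthase, also fell (log2 -0.58 ± 0.094 and -0.68 ± 0.12). Of the 15 tested genes on the mitochondrial genome 12 rose and 0 fell (median 0.43), with 7 rises within the libraries under 50 COL1A2 counts. MT-ND2, of complex I, had 3004, 3068 and 2087 CPM with chloroquine and 1399, 1077, 1205 and 1334 CPM with vehicle. The rise of 1.12 ± 0.13 (adjusted p = 1.48e-05) came with a lower level in chloroquine 3 than in the other chloroquine libraries, and the value was 0.77 within the libraries under 50 COL1A2 counts and 1.19 within the others. MT-CO1, of complex IV, did not pass (log2 0.09 ± 0.067, adjusted p = 0.338), but it passed with totals alone (0.18). Mitochondrial transcripts took 2.75%, 2.85% and 2.21% of counts in chloroquine libraries 1 to 3 and 1.86%, 1.60%, 1.63% and 1.78% in vehicle libraries 1 to 4. Glycolytic and hypoxia-response genes were divided, with 13 rises and 11 falls among 39 tested (5 falls with totals alone). VEGFA, a growth factor for blood vessels, rose by 0.92 ± 0.074 and the circadian repressor gene BHLHE40 by 1.63 ± 0.067, while the glycolytic enzyme genes GPI and LDHB fell (log2 -0.41 ± 0.082 and -0.39 ± 0.11). LDHB did not pass without chloroquine 1 (-0.36), without chloroquine 2 (-0.30) or within the libraries under 50 COL1A2 counts (-0.22).

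Selenoproteins carry the amino acid selenocysteine, which is inserted at a UGA codon, and 14 of 25 tested genes of this list fell and 1 rose (median -0.22). Within the libraries with at least 50 COL1A2 counts 9 fell. SELENOW, a small redox protein, had 25.5, 23.3 and 26.8 CPM in chloroquine libraries 1 to 3, against 91.4, 88.7, 88.1 and 79.8 CPM in vehicle libraries 1 to 4. Chloroquine libraries were far below every vehicle library, at a log2 fold change of -1.79 ± 0.082 (adjusted p = 6.95e-09). The nucleolar selenoprotein gene SELENOH had 16.7, 14.4 and 21.5 CPM with chloroquine and 54.3, 54.4, 51.7 and 41.1 CPM with vehicle (log2 -1.53 ± 0.15, adjusted p = 4.06e-06). The groups were apart, although vehicle 4 was the lowest vehicle library. GPX1 and GPX3, glutathione peroxidases, fell too (log2 -0.89 ± 0.10 and -1.31 ± 0.14). The rise was in SEPHS2, which makes selenophosphate for all selenoproteins and is one itself (log2 0.29 ± 0.046, adjusted p = 0.00018).

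In the list of NRF2 targets and antioxidant genes 18 of 34 tested members fell and 4 rose (median -0.29). PIR, an iron-binding nuclear protein and a known NRF2 target, had 6.61, 5.07 and 7.86 CPM with chloroquine and 21.4, 19.3, 18.9 and 17.1 CPM with vehicle (log2 -1.57 ± 0.12, adjusted p = 6.12e-07). Every chloroquine library was below every vehicle library. HMOX1, haem oxygenase, had 7.76, 10.2 and 7.52 CPM with chloroquine and 17.9, 17.6, 17.3 and 17.4 CPM with vehicle (log2 -1.04 ± 0.095), and GCLM, a subunit of the enzyme that starts glutathione synthesis, fell (log2 -0.85 ± 0.062). The 4 rises were SLC7A11 and SLC6A9, given above among the amino acid transporters, the ferritin light chain gene FTL, and MAFG, a partner of NRF2 on DNA (log2 0.61 ± 0.078). Iron and metal genes gave no common direction. Of 29 iron handling genes 7 rose and 9 fell (11 and 5 with totals alone), with 2 rises within the libraries under 50 COL1A2 counts and 3 within the others or without chloroquine 1 or 2, and 4 without combination 2. Without chloroquine 1 the falls were 5. For this list the median was -0.09, but 0.007 with totals alone. TFRC, the transferrin receptor, had 783, 768 and 738 CPM with chloroquine and 681, 712, 719.7 and 708 CPM with vehicle. Although these levels did not overlap, the difference did not pass (log2 0.11 ± 0.051, adjusted p = 0.0925), but it did with totals alone (0.21), with a filter at 10 CPM (0.17) and in the 2 groups fitted alone (0.13). FTH1, the ferritin heavy chain, did not pass (log2 -0.13 ± 0.11, adjusted p = 0.381), but it passed as a fall within the libraries under 50 COL1A2 counts (-0.37). The metallothionein gene MT2A, which binds zinc and copper, and the zinc importer gene SLC39A4 fell (log2 -0.66 ± 0.12 and -0.82 ± 0.11).

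CDKN1A and part of the p53 targets rose while many mitotic genes fell. The title of the series concerns p53 signalling with both drugs. CDKN1A, the cell cycle inhibitor p21, had 76.1, 68.5 and 66.7 CPM in chloroquine libraries 1 to 3 and 32.9, 32.1, 31.1 and 30.6 CPM in vehicle libraries 1 to 4. Each chloroquine library was far above every vehicle library (log2 1.15 ± 0.069, adjusted p = 5.45e-08). Among 53 tested p53 targets 23 rose and 2 fell (median 0.20), and 19 rose within each kind of library. Falls numbered 4 without chloroquine 3 and 1 without chloroquine 1. TNFRSF10B, the death receptor DR5, which CHOP is also known to induce, had 159, 163 and 157 CPM with chloroquine and 85.7, 81.8, 81.7 and 83.8 CPM with vehicle (log2 0.94 ± 0.044, adjusted p = 7.98e-09). Its groups were far apart. EDA2R, another receptor of the tumour necrosis factor family, rose by 1.03 ± 0.091. MDM2, the ubiquitin ligase of p53, had 104, 92.5 and 114 CPM with chloroquine and 116, 108, 115 and 111 CPM with vehicle. The groups overlapped and the difference did not pass (log2 -0.12 ± 0.072, adjusted p = 0.189), while without chloroquine 3 it passed as a fall of -0.21. In the mitosis list 35 of 59 tested members fell and 2 rose (median -0.25). CDC20, which activates the anaphase-promoting complex, had 98.7, 101 and 94.1 CPM with chloroquine and 184, 179, 180.4 and 182 CPM with vehicle (log2 -0.89 ± 0.067, adjusted p = 4.44e-07). PLK1, CCNB1 and AURKA, a kinase, a cyclin and a kinase of mitosis, fell too (log2 -0.83 ± 0.074, -0.64 ± 0.044 and -0.54 ± 0.055). Replication and G1/S genes fell in 19 of 59 tested cases and rose in 7 (median -0.11), against 10 falls and 13 rises with totals alone, and 4 rises without chloroquine 3. MCM5, of the replicative helicase, fell (log2 -0.38 ± 0.072), while E2F2, an activator of S phase genes, rose (log2 0.55 ± 0.077). Of 7 tested cell cycle inhibitors CDKN1A alone rose and 3 fell, among them CDKN2C (log2 -0.52 ± 0.058).

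Other genes with high fold changes are given next. ONECUT3, a homeodomain factor of the liver and nervous system, had 8.95, 7.96 and 7.01 CPM with chloroquine and 0.55, 0.285, 0.34 and 0.206 CPM with vehicle (log2 4.51 ± 0.26, adjusted p = 4.25e-08). It was near the floor in every vehicle library and clearly present in every chloroquine library. The next 9 genes, with EGR1, had the highest rises among called genes with a mean of at least 1 log2 CPM and no overlap. KRTAP19-1, a keratin-associated protein gene, had 35.6, 32.5 and 35.04 CPM with chloroquine and 5.0, 4.85, 4.04 and 4.74 CPM with vehicle (log2 2.89 ± 0.070). SORCS1, a sorting receptor, rose by 2.42 ± 0.14, EPS8L2, an actin regulator, by 2.29 ± 0.13, the zinc finger gene ZNF331 by 2.20 ± 0.15, the major vault protein gene MVP by 2.19 ± 0.16 and the axonemal dynein gene DNAH17 by 2.14 ± 0.18. GEM, a small GTP-binding protein, and IL3RA, a chain of the interleukin 3 receptor, rose by 2.07 ± 0.12 and 2.07 ± 0.16, and GPR50, an orphan receptor, by 2.03 ± 0.16. The groups did not overlap in any of these, which the choice of the genes required for all but ONECUT3. Among the falls outside the pathways, ID3, an inhibitor of helix-loop-helix factors and a known target of bone morphogenetic proteins, had 5.37, 5.93 and 5.03 CPM with chloroquine and 15.7, 13.9, 14.6 and 12.9 CPM with vehicle (log2 -1.39 ± 0.11). BCYRN1, a multicopy Alu-derived RNA, and the small nucleolar RNA gene SNORD17 were at -1.43 ± 0.20 and -1.39 ± 0.25, with counts that can be shared with copies. Of 19 tested cytokine and NF-kB genes 7 rose, 1 fell and 11 did not pass, with 3 rises within the libraries with at least 50 COL1A2 counts. CXCL8, the neutrophil chemokine interleukin 8, had 1.06, 1.54 and 1.53 CPM with chloroquine and 0.11, 0.342, 0 and 0.258 CPM with vehicle (log2 2.94 ± 0.56, adjusted p = 0.000844). IL11 rose by 1.93 ± 0.42 from a similar base. The ubiquitin-like interferon gene ISG15 rose by 1.32 ± 0.15, while IFIT1 and IFIT5 fell (log2 -0.53 ± 0.074 and -0.68 ± 0.088). The nuclear long RNAs NEAT1 and MALAT1 rose by 0.86 ± 0.061 and 0.56 ± 0.11, in a list with 13 rises and 1 fall among 21.

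The direction of change differed with the level of a gene and with its type. Among 2653 genes with a mean of 100 CPM or more over all 13 libraries 323 rose and 1107 fell, at a median log2 fold change of -0.12. From 10 to 100 CPM 1697 of 7838 rose and 2070 fell (median -0.03). From 1 to 10 CPM 1424 of 5360 rose and 483 fell (median 0.15), and under 1 CPM 508 of 3663 rose and 70 fell (median 0.34). Rises of at least 1 numbered 410 under 1 CPM and 7 at 100 CPM or more, and falls of that size 50 and 4. These means include the chloroquine libraries, and a low gene can pass the filter on low counts through the group in which it is high, which can add to the excess of rises among low genes. By type, 3028 of 13688 protein-coding genes rose and 3169 fell. Long intergenic RNAs rose in 215 of 759 cases and fell in 25, antisense RNAs rose in 235 of 1018 and fell in 33, and processed pseudogenes rose in 47 of 2055 and fell in 342. Of 423 ZNF zinc finger genes 123 rose and 30 fell. Counts of processed pseudogenes can include reads of their parent genes whatever the use of strand. Those of antisense RNAs can include reads of their partner genes, since whether strand was used in counting is unknown here. For the same reason the counts of ACAT2, AIMP2, BCL2L1, FTH1, HSPE1, IDUA, NEFM, SQSTM1 and WIPI1, with over 10% of their exonic bases shared with a gene on the opposite strand, are uncertain. ASNS and HYAL2 share over 10% with a gene on the same strand and CTSD with one on each, so their counts are uncertain whatever the use of strand.

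**Figure D3:**
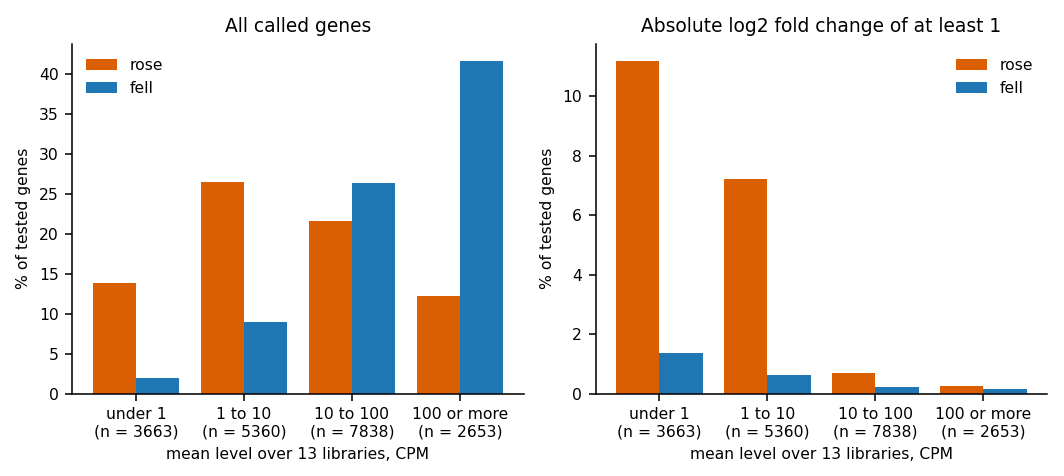
Share of tested genes that rose (orange) or fell (blue) with chloroquine against vehicle, by mean level over all 13 libraries in CPM, for all called genes (left) and for those that moved by 1 or more on the log2 scale (right). Falls make up 41.7% of genes at 100 CPM or more and 1.90% of genes under 1 CPM, while rises of at least 1 lie mostly under 10 CPM.

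The same drug was also compared in the presence of 5-FU, as the combination over 5-FU alone, in 6 libraries that share none with the comparison above. There 7517 genes (38.5%) passed, 3937 (20.2%) upward and 3580 (18.3%) downward. Of the 3952 rises with chloroquine alone 1080 (27.3%) also rose with 5-FU present, which is 27.4% of the rises there, and 875 (22.1%) fell. Of the 3730 falls 780 (20.9%) also fell, 21.8% of the falls there, and 885 (23.7%) rose. The shared falls thus lie near the 18.3% of all genes that fell in the combination over 5-FU. Of the 858 rises of at least 1 with chloroquine alone 161 also rose with 5-FU, a share near the 20.2% of all genes that rose there. Of the 104 falls of that size 29 also fell, against 18.3% of all genes.

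Single genes kept, lost or turned their response to chloroquine when 5-FU was present. SELENOW fell in both settings, with -1.81 ± 0.085 in the combination over 5-FU and -1.79 ± 0.082 in chloroquine over vehicle (log2). INSIG1 rose by 1.68 ± 0.060 with 5-FU and by 1.08 ± 0.053 without it. HMOX1 was at -1.80 ± 0.081 and -1.04 ± 0.095, and GPNMB rose by 1.39 ± 0.15 and 0.97 ± 0.19. HSPA1A was at -0.47 ± 0.073 with 5-FU and -1.96 ± 0.069 without it, and the difference between the 2 effects passed (interaction 1.48 ± 0.099, edgeR adjusted p = 1.45e-07). EGR1 did not pass with 5-FU (-0.36 ± 0.18, adjusted p = 0.141) against 2.02 ± 0.19 without it (interaction -2.38 ± 0.26, adjusted p = 1.21e-05). EPS8L2 fell with 5-FU (-0.83 ± 0.13) and rose without it (2.29 ± 0.13). CLCN7 and IDUA of the lysosome likewise fell with 5-FU (log2 -0.78 ± 0.11 and -0.88 ± 0.12) and rose without it (0.63 ± 0.10 and 1.27 ± 0.13), as did VEGFA (-0.54 ± 0.090 with 5-FU and 0.92 ± 0.074 without). CDKN1A rose in both, by 0.41 ± 0.069 with 5-FU and 1.15 ± 0.069 without. Over lists, the median log2 fold change was 0.16 in the combination over 5-FU and -0.55 in chloroquine over vehicle for CCT and prefoldin, 0.09 and -0.34 for the proteasome, 0.16 and -0.34 for the mitochondrial ribosome, -0.03 and 0.64 for the immediate early list, and 0.18 and 0.12 for sterol genes. The interaction passed for 7791 genes (39.9%), among them 35 of 43 proteasome genes and 64 of 76 genes of the mitochondrial ribosome in the positive direction, against 20.6% of all genes. For the immediate early list it passed in 21 of 42 in the negative direction, against 19.3% of all genes. The interaction contains the chloroquine and vehicle libraries themselves, so it is not independent of the falls and rises above.

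**Figure D4:**
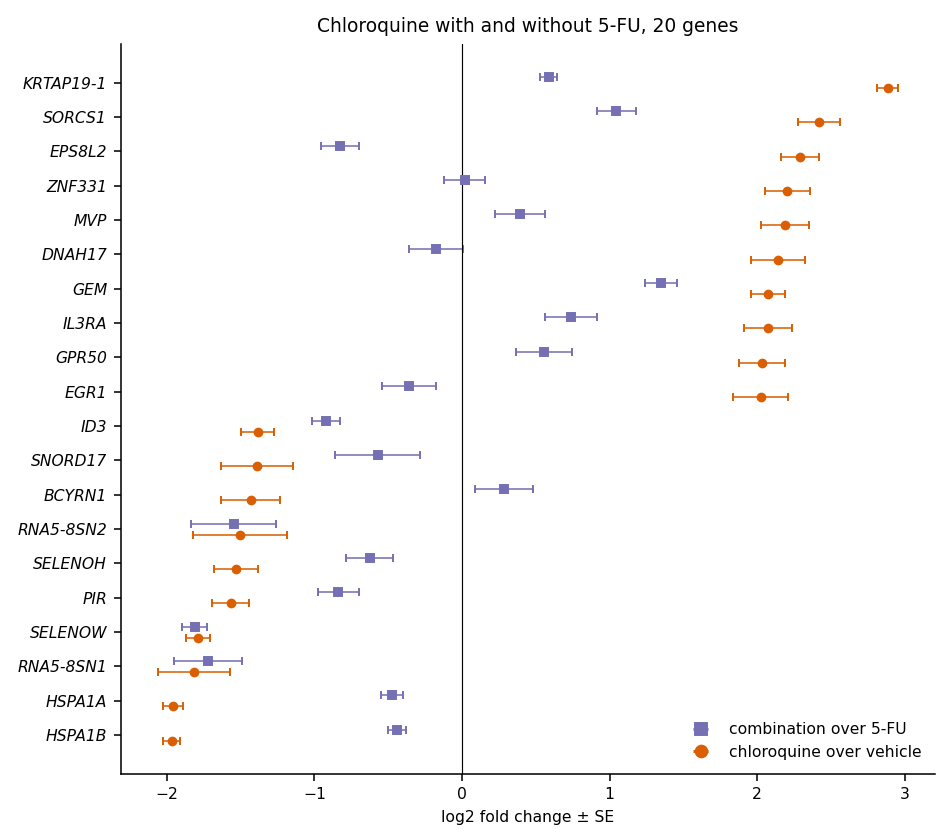
Log2 fold changes with their SE for the 10 highest rises and 10 deepest falls of the naming rule, in the combination over 5-FU (purple squares, n = 3 each) and in chloroquine over vehicle (orange circles, n = 3 and 4). SELENOW and the 5.8S copies overlap in the 2 settings, while EPS8L2 lies at -0.83 with 5-FU and 2.29 without.

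Directions were the same in both kinds of library for nearly all genes called. Of the 7682 genes called in the 7 libraries together, 7678 (99.9%) had the same sign in the libraries with under 50 and with at least 50 COL1A2 counts, as did all 719 called list members. The pooled values are made from the same libraries, so these signs are not independent of the call. Within the libraries under 50 COL1A2 counts alone 4929 genes passed, within the others 4550, and 3210 passed in both in the same direction. With the kind of library as a term 8328 genes passed, 7261 of them among those called without it and in the same direction. Each kind holds groups of 1 library, 1 of chloroquine against 3 of vehicle and 2 of chloroquine against 1 of vehicle, and a lone library is assumed to vary like the others. Of the genes named as changed, GPNMB, NPC1 and TM7SF2 passed in neither kind alone. ASNS, ATF4, CTSK, IL11, SPRY4 and RNA5-8SN2 did not pass within the libraries with at least 50 COL1A2 counts, and LDHB, MAP1LC3B, SLC1A2 and TBC1D7 not within the others. The part of the other tissues' transcripts in these results was not tested beyond these fits.

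**Figure D5:**
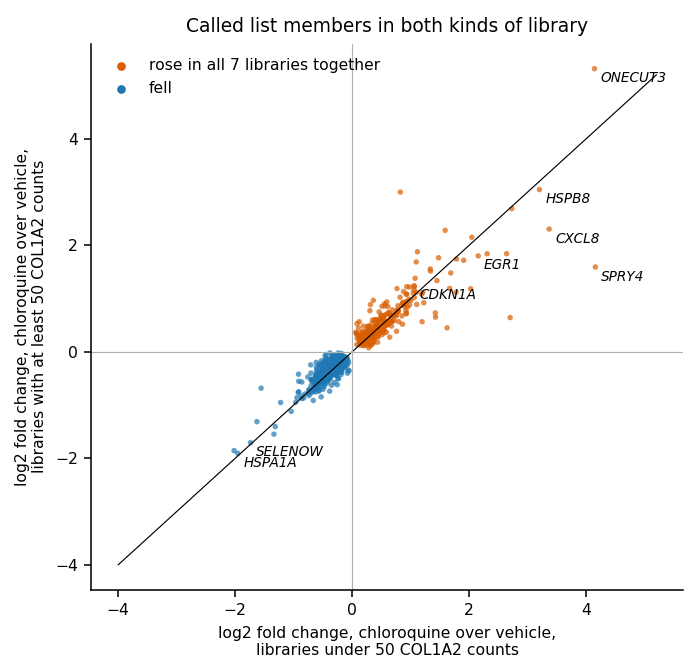
Log2 fold change of the 719 called list members, chloroquine over vehicle, within libraries with at least 50 COL1A2 counts (vertical axis) against libraries under 50 (horizontal axis), with the line of equality; orange genes rose and blue genes fell in the 7 libraries together. All 719 have the same sign on both axes, and SPRY4, a low gene at 1.59 with at least 50 and 4.16 with under 50 counts, lies far from the line.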

How the data were processed

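Total RNA of 13 samples was sequenced from libraries made with a directional kit, per the labels' protocols. The authors deposited whole-number counts per gene with human symbols. The submitters' processing notes name DESeq and GRCm38, a mouse build. No source used here gives the aligner, the counter or the use of strand. No coordinates were taken from the counts. Gene types and overlaps came from GENCODE 29.

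The deposited counts were tested with edgeR 4.0.16 (R 4.3.3), quasi-likelihood F test, TMM scaling, filterByExpr and 1 mean per group over all 13 libraries, which share the spread. Genes passed at a Benjamini-Hochberg adjusted p under 0.05. The filter kept at least 99.84% of counts in each library. SE is the absolute log2 fold change over the square root of F. The script was tested on simulated data. Alternatives were relative log expression and total-count scaling, DESeq2 1.42.0, limma-voom 3.58.1, other filters, a replicate block, a term for the kind of library, each kind alone, the compared groups alone and leaving out each library. Same-numbered combination and 5-FU libraries deviated together (r = 0.341, 0.743 and 0.339) and were taken to pair. The main fit left this pairing out, and only the replicate block used it. In replicate 2, with r = 0.743, both libraries carried COL1A2 (153 counts in the combination and 159 in 5-FU). The part of this in the correlation was not tested. The block moved no count of calls by over 1.5 times.

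Named genes were the 10 largest changes each way among called genes with a mean of at least 1 log2 CPM, no overlap and the same call with the term for kind, without clone-style, antisense or pseudogene names, the 2 largest each way per list, and 14 set genes. Some items of these lists are not reported here. ETV5, FOS, DUSP4, ATF3, TPP1, CLCN7, RRAGD, FLCN, TSC1, HSP90AA1, HSP90AB1, HSPE1, HSPH1, CHORDC1, DDIT3, PPP1R15A, ASNS, ATF4, SLC7A11, SLC38A1, GPX1, GPX3, GCLM, TNFRSF10B, EDA2R, SREBF2, CCNB1, AURKA, MT-CO1, NPM1, MT2A, DSC3 and PERP were added after their values were seen. The comparison and the lists were chosen with earlier results of these data known. Promoters are from RefSeq (GRCh38.p14), and 1038 of 1295 list genes matched one.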

Additional observations from a re-analysis of the deposited data

Results flagged for a closer look

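In the vehicle group, the value of 1 library lay apart from the other 3 in 12 of 174 genes and 5 of 15 library measures, where chance gives about 1 in 20. Vehicle 4 was that library in 11 of the 17 cases. It had a summed 161.0 CPM of fibroblast and matrix markers, 14.44 of red blood cell, 24.58 of leukocyte, 37.55 of muscle and 40.87 of pancreas and salivary markers. Its CTSK level was high at 3.403 CPM, and its levels of CDKN2A (195.7), MALAT1 (60.69), MT2A (8.868), POLR1E (68.88) and SDF2L1 (42.64 CPM) were low. Vehicle 2 was high in ABCA12 (0.114), BCL2L1 (23.51), HSP90AA1 (3908) and SQSTM1 (36.29 CPM), and vehicle 1 in DNAJB9 (18.63) and NPM1 (1309 CPM).

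For 16 of 20 genes, the 10 highest rises and 10 deepest falls among called genes with a mean of at least 1 log2 CPM and no overlap, the effect of chloroquine with 5-FU differed from that without it by the edgeR interaction test. The difference (with minus without, log2) was 1.53 for HSPA1B, 1.48 for HSPA1A, 0.73 for PIR, 0.91 for SELENOH, 1.72 for BCYRN1 and 0.46 for ID3, which all fell with chloroquine alone. It was -2.38 for EGR1, -1.48 for GPR50, -1.33 for IL3RA, -0.73 for GEM, -2.32 for DNAH17, -1.80 for MVP, -2.18 for ZNF331, -3.11 for EPS8L2, -1.37 for SORCS1 and -2.30 for KRTAP19-1, which all rose with chloroquine alone. The genes were chosen for their change without 5-FU, which enters the difference.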

How the results depend on the processing

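Against 7682 genes called for chloroquine over vehicle, 4929 were called within the libraries under 50 COL1A2 counts and 4550 within the others, where fewer libraries enter. Leaving out 1 library gave 6005 (without chloroquine 1) to 8720 (without 5-FU 1) calls. Changes of at least 1 numbered 962, 140 with a filter at 10 CPM, which removes low genes, and 881 to 1103 without 1 library. The combination over 5-FU had 7517 calls, 3135 within the libraries with at least 50 counts and 6110 to 7861 without 1 library, and the interaction 7791, 3614 and 6747 to 8237. With the replicate number as a block the counts were 7584, 1297, 7469 and 7729. Same-numbered chloroquine and vehicle libraries shared only a number (residual r = -0.384, -0.32 and 0.475). Relative log expression scaling moved the median of all genes by -0.0177 and totals alone by 0.0953, with 3712 rises and 4047 falls under relative log expression scaling. The sign turned, in genes that did not pass, for CTSD (0.016 with totals alone, 0.024 with the term for kind, 0.072 within the libraries under 50 counts), LAMP1 (0.001) and SQSTM1 (0.011) with totals alone, MDM2 (0.007) and MT-CO1 (-0.081) within the libraries under 50 counts, and TFE3 (-0.047 within the others, -0.005 without chloroquine 3 to 0.047 without vehicle 4). The cause was not tested. Of the values of named genes under alternatives, 3976 kept direction and call, 140 lost the call, 7 gained it and 9 turned. Genes under about 1 CPM rest on few counts.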
